A study of Mus musculus with 12 samples.

Results

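The phagocyte NADPH oxidase subunit genes were followed here in myeloid-derived suppressor cells (MDSCs), a heterogeneous group of immature myeloid cells that accumulate in tumors. The list holds 6 genes, Cybb, Cyba, Ncf1, Ncf4, Rac1 and Rac2, named by symbol as subunits of the complex, with no measured value in the rule, although earlier results of these data were known when the list was made. All 6 were among the 24346 gene symbols of the deposited tables, and all 6 passed the filter on low values in every comparison. The list does not hold every subunit of the complex. The cells came from wild-type C57BL/6 J female mice carrying orthotopic liver tumors of Hepa 1-6, a mouse hepatoma line, and were sorted from the tumor. M-MDSCs, the monocytic subset, were gated as CD11b+ Ly-6C high Ly-6G-, and PMN-MDSCs, the polymorphonuclear subset, as CD11b+ Ly-6C intermediate Ly-6G+. Mice had received vehicle, MS275 (entinostat, a benzamide) or CXD101 by daily intraperitoneal injection. The paper describes both compounds as inhibitors of HDAC1, HDAC2 and HDAC3, histone deacetylases of class I. Each of the 6 groups (Vehicle, MS275 and CXD101 in M-MDSCs and in PMN-MDSCs) had 2 libraries, 12 in all. The PMN-MDSC libraries have no account in the paper's text, and whether the libraries of a group came from separate or pooled mice is not given in the labels, so a p-value below measures the spread between these libraries only. Sorted tumor cells from one tumor line at one end point limit each group as a model, and bulk RNA does not tell fewer cells of a kind from less RNA per cell.

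The NADPH oxidase of phagocytes carries electrons from cytosolic NADPH across a membrane onto oxygen and so makes superoxide, the source of the respiratory burst. Its catalytic core, flavocytochrome b558, is a heterodimer of gp91phox (Cybb) and p22phox (Cyba). In the resting cell p47phox (Ncf1) and p40phox (Ncf4) wait in the cytosol, and they move to the membrane on stimulation together with an active Rac GTPase, Rac1 or Rac2. Reactive oxygen made by this enzyme is known as one of the means by which MDSCs, above all the polymorphonuclear kind, act on T cells.

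Both genes of the membrane core are shown first by their upstream sequence, because their transcripts moved in opposite directions in PMN-MDSCs. The RefSeq promoter table for GRCm38.p6 matched 3 of the 6 members (Cybb, Cyba and Ncf1). The 250 bases before the RefSeq start of Cybb lie at chrX:9469325-9469574 and those of Cyba at chr8:122432941-122433190, both on the minus strand and both printed 5′ to 3′. Capitals mark CCAAT.
Cybb: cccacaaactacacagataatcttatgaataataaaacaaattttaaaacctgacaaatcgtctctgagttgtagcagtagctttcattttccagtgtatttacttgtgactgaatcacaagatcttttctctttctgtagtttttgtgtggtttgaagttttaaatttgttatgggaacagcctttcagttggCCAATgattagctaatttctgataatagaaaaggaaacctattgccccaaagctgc
Cyba: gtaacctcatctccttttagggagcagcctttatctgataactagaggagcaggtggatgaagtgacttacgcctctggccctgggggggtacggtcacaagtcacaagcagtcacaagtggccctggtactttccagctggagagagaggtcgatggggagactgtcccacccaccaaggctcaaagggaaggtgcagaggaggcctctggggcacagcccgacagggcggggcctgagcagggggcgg
The strings CCAAT, whose reverse complement reads ATTGG, and GAGGAA, whose reverse complement reads TTCCTC, were searched on both strands, and no match of one overlapped a match of the other. CCAAT stood once in the Cybb window, beginning 56 bases before the start (position -56), and GAGGAA was not found there. Neither string was found in the windows of Cyba and Ncf1. Of 32851 mouse windows of the same length, 33.9% held CCAAT and 23.3% held GAGGAA. The Cybb window was 34.0% G and C, and the Cyba window 60.0%. These are matches of letters and say nothing of which factor binds.

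In the GENCODE M21 annotation of GRCm38, Cybb (gp91phox) spans 9435252 to 9487771 on the minus strand of chromosome X with 5 transcripts. Cyba (p22phox) spans 122424776 to 122432930 on the minus strand of chromosome 8 with 3 transcripts and overlaps Gm20388 on the opposite strand. Ncf1 (p47phox) spans 134220053 to 134229625 on the minus strand of chromosome 5, where Gtf2ird2 overlaps it on the opposite strand. Rac1 lies on the same chromosome from 143503634 to 143528036, also on the minus strand, and overlaps Daglb and Gm42502 on the opposite strand. Ncf4 (p40phox, plus strand, 78244801 to 78262580) and Rac2 (minus strand, 78559167 to 78572783) both lie on chromosome 15. Whether reads were assigned by strand is not given in the sources used here, so for Cyba, Ncf1 and Rac1 a share of reads from the partner genes cannot be told apart. None of the 101-base stretches of the 6 genes' annotated transcripts, between 1135 and 5802 per gene, occurred in a transcript of another gene, Rac1 and Rac2 included, so reads of this length without mismatches could be placed.

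Transcript levels were deposited as FPKM, a read count scaled to transcript length and library size, so levels of different genes can be set side by side. The 6 genes were abundant in every library. Cyba was the highest of them in all 12 libraries, with 742 to 1602 FPKM, and Ncf1 was second in all 12, with 202 to 643 FPKM. Ncf4 was lowest in all 6 M-MDSC libraries and Rac1 in all 6 PMN-MDSC libraries. In M-MDSCs, Cybb, Rac1 and Rac2 lay close together, between 152 and 231 FPKM, and their order changed from library to library. In PMN-MDSCs, Rac2 came next after Ncf1 in every library, and Cybb changed place with Ncf4: Ncf4 exceeded Cybb under vehicle, and Cybb exceeded Ncf4 under either inhibitor. Across the 6 group means the highest was 1.28 times the lowest for Rac1, against 2.04 times for Cyba and 2.83 to 3.02 times for the other 4 genes. The plot of levels by library shows these values.

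**Figure D1:**
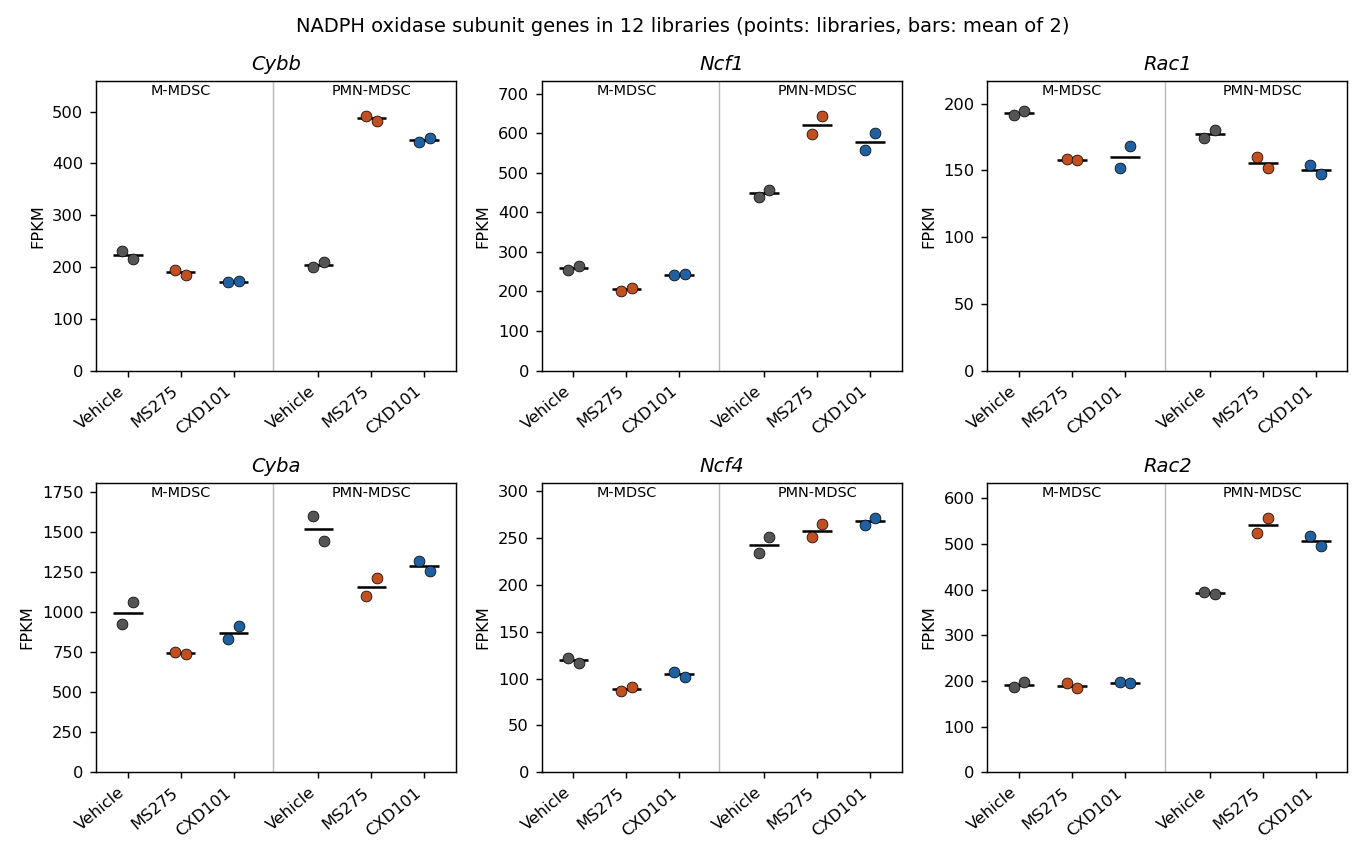
Levels of the 6 subunit genes. The y axis is FPKM from 0, the x axis the 6 groups with M-MDSC at left and PMN-MDSC at right of each panel; each point is 1 library and each bar the mean of 2. Cybb stands at 442 to 492 FPKM in the 4 PMN-MDSC libraries under an inhibitor and at 172 to 231 FPKM in the other 8 libraries.

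Among the comparisons with vehicle, the largest difference of any member was that of Cybb in PMN-MDSCs. The question was whether inhibition of these deacetylases in the animal changed the oxidase genes of this subset, and limma was fitted on log2(FPKM + 1) over the 6 libraries. Cybb, the catalytic subunit, rose to more than double its vehicle level under both compounds. Ncf1 and Rac2 rose by a smaller amount, Cyba and Rac1 fell slightly, and no change of Ncf4 passed the test. A gene passed at an adjusted p under 0.05 and was called when its fold change was also above 1.5. Cybb was the 1 of 6 members called higher under MS275, where 14.6% of the 11184 genes tested were called higher, and the 1 of 6 called higher under CXD101, where 11.9% were. By adjusted p alone 5 of 6 members changed under MS275 and 5 of 6 under CXD101, against 53.7% and 45.3% of all genes in either direction. The median difference over the members was 0.28 under MS275 and 0.25 under CXD101 on the log2 scale, beside -0.03 and -0.03 over all genes tested.

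Cybb, the electron-carrying subunit, was at 199.7 and 209 FPKM in the 2 vehicle libraries of PMN-MDSCs. It reached 492 and 481 FPKM under MS275, and 442 and 449 FPKM under CXD101. All 4 libraries under an inhibitor were above both vehicle libraries, with a wide gap between them. The fold change was 2.37 under MS275 (log2 1.25, SE 0.0562, 95% interval 1.12 to 1.38, limma adjusted p = 4.44e-06). Under CXD101 the fold change was 2.17 (log2 1.12, SE 0.0562, interval 0.99 to 1.25, limma adjusted p = 1.06e-05).

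Cyba encodes p22phox, which stabilizes the catalytic subunit in the membrane. It went the other way, from 1602 and 1443 FPKM under vehicle to 1103 and 1215 FPKM under MS275 and 1319 and 1258 FPKM under CXD101. The vehicle libraries were above all 4 others, although by less than their own spread in the case of CXD101. The log2 difference was -0.39 under MS275 (SE 0.0775, limma adjusted p = 0.00379) and -0.24 under CXD101 (SE 0.0775, limma adjusted p = 0.0378), both below the fold limit. The CXD101 difference passed in 9 of 16 alternative fits and did not pass without Vehicle replicate 1, without CXD101 replicate 1 or without CXD101 replicate 2. Since both genes were read in the same libraries, their ratio does not depend on how a library was scaled. Cyba/Cybb was 8.02 and 6.90 under vehicle, 2.24 and 2.53 under MS275, and 2.99 and 2.80 under CXD101.

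The cytosolic organizer Ncf1, which links the cytosolic subunits to the membrane core, was at 439.8 and 456 FPKM under vehicle. Under MS275 it was at 599 and 643 FPKM, and under CXD101 at 557 and 601 FPKM. Both inhibitor groups lay above vehicle without overlap, while they overlapped each other. The log2 difference was 0.47 (SE 0.0663, limma adjusted p = 0.000732) under MS275 and 0.37 (SE 0.0663, limma adjusted p = 0.00322) under CXD101. Its partner Ncf4, a subunit that binds a phosphoinositide of the phagosome membrane, had 234 and 252 FPKM under vehicle, 251 and 265 FPKM under MS275, and 264 and 272 FPKM under CXD101. Its vehicle and MS275 libraries overlapped, and the log2 differences of 0.09 (95% interval -0.06 to 0.24) and 0.14 (interval -0.0049 to 0.29) did not pass. The ratio Ncf4/Ncf1 was 0.532 and 0.552 under vehicle, 0.419 and 0.412 under MS275, and 0.474 and 0.453 under CXD101, lower in each library under an inhibitor.

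Rac2 is the hematopoietic GTPase that activates the oxidase in neutrophils. It had 395 and 390 FPKM under vehicle, 524 and 558 FPKM under MS275, and 517 and 497 FPKM under CXD101, with no overlap between vehicle and either inhibitor. The log2 difference was 0.46 (SE 0.0592, limma adjusted p = 0.00047) under MS275 and 0.37 (SE 0.0592, limma adjusted p = 0.00198) under CXD101. Rac1, the widely expressed homolog, had 174 and 180.3 FPKM under vehicle, 159.7 and 152 FPKM under MS275, and 154 and 147 FPKM under CXD101. Its log2 difference was -0.19 under MS275 (SE 0.0614, limma adjusted p = 0.0348) and -0.23 under CXD101 (SE 0.0614, limma adjusted p = 0.0170). The MS275 difference of Rac1 passed in 6 of 16 alternative fits and failed whenever 1 of the 6 libraries was left out, and that of CXD101 passed in 12 of 16, failing without Vehicle replicate 2, CXD101 replicate 1 or CXD101 replicate 2. The ratio Rac2/Rac1 was 2.27 and 2.17 under vehicle, 3.28 and 3.68 under MS275, and 3.35 and 3.37 under CXD101.

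The scaling of the libraries bears on these smaller changes. S100a8 and S100a9, alarmin genes of neutrophils, took 10.2% and 13.7% of the summed FPKM in the vehicle libraries of PMN-MDSCs and 27.3% to 30.9% under the inhibitors. When each library was scaled to the same sum, the median of all genes moved to -0.34 under MS275 and -0.34 under CXD101. Cybb was still called, at 0.90 (adjusted p = 2.25e-05) under MS275 and 0.77 (adjusted p = 6.58e-05) under CXD101. Under that scaling Ncf1 was at 0.12 (adjusted p = 0.144) and 0.02 (adjusted p = 0.822), Rac2 at 0.11 (adjusted p = 0.191) and 0.02 (adjusted p = 0.851), and Ncf4 at -0.26 (adjusted p = 0.00807) and -0.21 (adjusted p = 0.0233), with the direction reversed and past the test. Rac1 was then at -0.54 (adjusted p = 0.000294) and -0.58 (adjusted p = 0.000278), below the fold limit. The fall of Cyba was then called, at -0.74 and -0.59, where 31.3% and 27.8% of all genes were called lower. Relative to the median of all genes, the equal-sum values under MS275 were 1.24 for Cybb, 0.46 for Ncf1, 0.45 for Rac2, 0.08 for Ncf4, -0.19 for Rac1 and -0.40 for Cyba. Under CXD101 they were 1.11 for Cybb, 0.36 for Ncf1, 0.36 for Rac2, 0.13 for Ncf4, -0.24 for Rac1 and -0.25 for Cyba. Since this scaling moves abundant genes and the median by nearly the same amount, these relative values follow from the reported fit. They are no separate result.

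**Figure D2:**
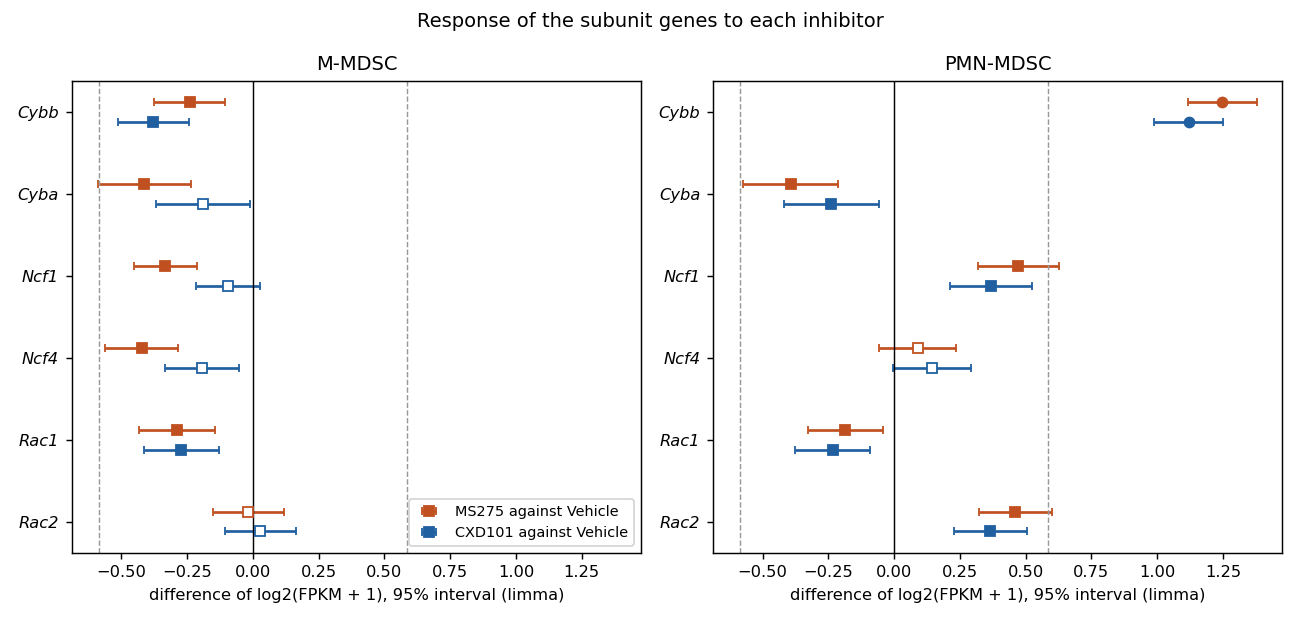
Response of each gene to the inhibitors, as the difference of log2(FPKM + 1) from vehicle with the 95% interval of limma, in M-MDSC (left) and PMN-MDSC (right). Filled symbols passed at an adjusted p under 0.05, circles also exceeded the 1.5-fold limit (dashed lines), and open symbols did not pass. Cybb in PMN-MDSC, at 1.25 and 1.12, is the only gene past the dashed lines.

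Markers of cell type and maturation also moved with the inhibitors in PMN-MDSCs. The 10 neutrophil markers measured, which include granule proteins and chemokine receptors, summed to 71571 and 97549 FPKM under vehicle, 255530 to 279020 FPKM under MS275 and 269830 to 296060 FPKM under CXD101. Nearly all of that sum was S100a8 (35864 and 52947 FPKM under vehicle, 94852 to 117430 FPKM under the inhibitors) and S100a9 (31056 and 39303 FPKM against 135900 to 148250 FPKM). The list did not move as one. The secondary granule gene Ltf (lactoferrin) had 693 and 760.0 FPKM under vehicle, 4077 and 4098 FPKM under MS275, and 4945 and 4981 FPKM under CXD101. Mmp9, a gelatinase of late granules, went the other way, from 978 and 1144 FPKM under vehicle to 668 to 724 FPKM under the inhibitors. The 6 monocyte markers summed to 689.9 to 766 FPKM under vehicle and 1562 to 1843 FPKM under the inhibitors. Most of that sum was Ly6c2, part of the antigen used in the sort, which had 511 and 455 FPKM under vehicle, 1487 and 1677 FPKM under MS275, and 1628 and 1418 FPKM under CXD101. Ccr2, a chemokine receptor of monocytes, had 40.7 and 35.7 FPKM under vehicle and 27.5 to 29.96 FPKM under the inhibitors. Csf1r, the receptor for the monocyte growth factor, had 159.9 and 145 FPKM under vehicle and 59.9 to 72.4 FPKM under the inhibitors, so both moved against Ly6c2. Fn1, of the same list, had 48.1 and 49.0 FPKM under vehicle, 58.9 and 68.1 FPKM under MS275, and 41.3 and 39.9 FPKM under CXD101. F13a1 overlapped vehicle under both inhibitors. The macrophage list summed to 181 to 191 FPKM under vehicle and 111 to 143 FPKM under the inhibitors, and the progenitor list (Cd34, Kit, Flt3 and Spink2) to 19.8 to 20.3 FPKM and 54.4 to 61.1 FPKM. Within the macrophage list Mrc1 fell from 50.6 and 48.0 FPKM to 2.96 to 23.7 FPKM under the inhibitors, and C1qa, C1qb and C1qc fell as well. Apoe rose, from 13.8 and 16.4 FPKM to 45.2 and 51.1 FPKM under MS275 and 18.6 and 25.5 FPKM under CXD101. The part of these shifts in the values of Cybb, Ncf1, Rac2 and Cyba was not tested.

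In M-MDSCs the oxidase genes were lower, not higher, and by little. Under MS275, 5 of 6 members fell by adjusted p, where 27.3% of the 11078 genes tested fell, but 0 of 6 members passed the fold limit as well (17.5% of all genes were called in either direction). Under CXD101, 2 of 6 members, Cybb and Rac1, fell by adjusted p (12.2% of all genes), and 0 of 6 were called (8.13% of all genes). The median over the members was -0.31 under MS275 and -0.19 under CXD101, beside -0.06 and -0.02 over all genes.

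Cybb in M-MDSCs had 231 and 216 FPKM under vehicle, 194 and 184 FPKM under MS275, and 172 and 172 FPKM under CXD101. Both inhibitor groups lay below vehicle, without overlap. The log2 difference was -0.24 under MS275 (SE 0.0585, limma adjusted p = 0.0106) and -0.38 under CXD101 (SE 0.0585, limma adjusted p = 0.00304). Without Vehicle replicate 1, without MS275 replicate 2 or under quantile normalization the MS275 difference did not pass, with adjusted p up to 0.210 and log2 differences no closer to 0 than -0.11.

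Cyba, its partner, had 927 and 1066 FPKM under vehicle, 752 and 742 FPKM under MS275, and 832 and 914 FPKM under CXD101. The fall under MS275 was -0.41 (SE 0.0777, limma adjusted p = 0.00315), and the CXD101 value of -0.19 did not pass (limma adjusted p = 0.119). In this subset the Cyba/Cybb ratio under vehicle (4.003 and 4.93) overlapped that under MS275 (3.87 and 4.03) and that under CXD101 (4.85 and 5.31).

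Of the cytosolic subunits, Ncf1 had 255 and 263 FPKM under vehicle, 202 and 209.6 FPKM under MS275, and 240.5 and 245 FPKM under CXD101. Ncf4 had 123 and 117 FPKM under vehicle, 86.8 and 91.3 FPKM under MS275, and 107 and 102 FPKM under CXD101. For both genes the order was vehicle, CXD101, MS275, with no overlap. The falls under MS275 were -0.33 for Ncf1 (SE 0.0526, limma adjusted p = 0.00131) and -0.42 for Ncf4 (SE 0.0605, limma adjusted p = 0.0008). Under CXD101 neither passed, with -0.10 (limma adjusted p = 0.229) for Ncf1 and -0.19 (limma adjusted p = 0.0521) for Ncf4. The ratio Ncf4/Ncf1 was 0.480 and 0.443 under vehicle, 0.430 and 0.436 under MS275, and 0.446 and 0.416 under CXD101, where the CXD101 values overlapped both other groups.

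Rac1 had 191 and 195 FPKM under vehicle, 159 and 158 FPKM under MS275, and 152 and 168 FPKM under CXD101. It was lower by 0.29 under MS275 (log2 difference -0.29, SE 0.0628, limma adjusted p = 0.00627) and by 0.27 under CXD101 (log2 difference -0.27, SE 0.0628, limma adjusted p = 0.0174), and the latter passed in 11 of 16 alternative fits. It failed without Vehicle replicate 1, without Vehicle replicate 2 and without CXD101 replicate 1, with adjusted p up to 0.0796 over all alternatives. Rac2 overlapped among all 3 groups, with 186 and 198 FPKM under vehicle, 195 and 184 FPKM under MS275, and 197 and 194.5 FPKM under CXD101. Its log2 differences of -0.02 (interval -0.15 to 0.12) and 0.03 (interval -0.11 to 0.16) did not pass, and their sign was not stable: the MS275 value turned positive under all 3 other scalings and without Vehicle replicate 2 or MS275 replicate 2, and the CXD101 value turned negative without Vehicle replicate 1. The ratio Rac2/Rac1 was 0.971 and 1.02 under vehicle, 1.23 and 1.17 under MS275, and 1.30 and 1.15 under CXD101, higher in every library under an inhibitor, as in PMN-MDSCs.

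Markers moved in M-MDSCs as well. The monocyte list summed to 1685 to 1757 FPKM under vehicle, 2892 to 2913 FPKM under MS275 and 2423 to 2508 FPKM under CXD101. Ly6c2 carried most of this, with 1306 to 1360 FPKM under vehicle and 2041 to 2447 FPKM under the inhibitors. Ccr2 (147 and 137 FPKM under vehicle, 125 and 124 FPKM under MS275) and Csf1r (123 and 123 FPKM, 97.1 and 94.9 FPKM) were lower. Fn1, of the same list, rose from 97.4 and 98.3 FPKM to 250 and 220 FPKM under MS275 and 115.5 and 119 FPKM under CXD101. F13a1 had 29.1 and 19.9 FPKM under vehicle, 24.8 and 26.5 FPKM under MS275, and 42.7 and 33.1 FPKM under CXD101. The neutrophil list summed to 11426 to 12081 FPKM under vehicle and 22001 to 26020 FPKM under the inhibitors, again mostly S100a8 and S100a9. Mmp8, the neutrophil collagenase of that list, had 117 and 107 FPKM under vehicle and 768 and 801 FPKM under MS275. Csf3r and Cxcr2 were also higher under MS275. Other genes of the list were lower under MS275, among them Ltf (73.35 and 101.5 to 29.1 and 31.8 FPKM) and Ngp (470 and 544 to 331 and 372 FPKM). Camp and Mmp9 were lower as well, and Retnlg overlapped vehicle. The macrophage list summed to 145 to 147 FPKM under vehicle, 75.2 to 81.3 FPKM under MS275 and 119 to 137 FPKM under CXD101. Within it Mrc1 fell from 79.9 and 81.3 FPKM to 16.4 and 13.5 FPKM under MS275, and C1qa, C1qb and C1qc fell as well. Adgre1 (38.9 and 41.5 to 58.4 and 53.9 FPKM) and Apoe (3.46 and 3.78 to 5.36 and 6.04 FPKM) rose under MS275. The eosinophil list, whose genes encode granule proteins and receptors of that lineage, summed to 152 to 184 FPKM under vehicle and 361 to 394 FPKM under the inhibitors. Most of that sum was Ear2 (137 and 174 FPKM under vehicle, 228 to 265 FPKM under the inhibitors) and Prg2 (10.6 and 6.56 FPKM against 94.0 to 133 FPKM). Epx and Siglecf also rose, while the receptors Ccr3 and Il5ra were at 0.217 FPKM or less in every M-MDSC library. The progenitor list summed to 7.21 to 8.49 FPKM under vehicle, 86.1 to 86.8 FPKM under MS275 and 27.3 to 28.1 FPKM under CXD101. Lymphocyte and NK cell markers summed to 3.82 FPKM at most in any of the 12 libraries, and erythroid markers to 0.873 FPKM at most. Their part in the values above was not tested, and for lymphocytes and erythroid cells the sums were near 0.

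The 2 compounds were compared with each other in 6 genes and 2 subsets, 12 pairs in all, with p-values adjusted over all genes tested. Both were given at the same dose and schedule. MS275 and CXD101 differed for Ncf1 (log2 -0.24 for MS275 against CXD101, interval -0.36 to -0.12, limma adjusted p = 0.0231) and Ncf4 (-0.23, interval -0.37 to -0.09, limma adjusted p = 0.0422) in M-MDSCs. Those were 2 of 6 members lower under MS275, against 7.73% of all genes, and 0 of 6 were called (4.40% of all genes). The Ncf1 difference passed in 10 of 16 alternative fits and the Ncf4 difference in 3 of 16, and neither passed when any 1 of the 4 libraries compared was left out. For Cybb in M-MDSCs the difference was 0.14 (interval 0.0042 to 0.27) and for Cyba -0.22 (interval -0.40 to -0.05), neither of which passed after adjustment. In PMN-MDSCs 0 of 6 members differed between the compounds (1.17% of all genes did), with intervals of -0.0029 to 0.26 for Cybb, -0.33 to 0.03 for Cyba, -0.05 to 0.26 for Ncf1 and -0.04 to 0.23 for Rac2. Each of those intervals held 0, so no difference was shown, and differences up to their ends were not excluded. The Cybb libraries themselves did not overlap, those under MS275 being higher.

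The response of each gene was then compared between subsets as an interaction over all 12 libraries. For MS275, 4 of 6 members had a response that was higher in PMN-MDSCs by adjusted p (15.9% of 11662 genes) and 2 of 6, Cybb and Ncf1, also exceeded 1.5-fold (8.65% of genes). For CXD101, the numbers were 4 of 6 (12.2% of genes) and 1 of 6, Cybb (7.31% of genes). The Cybb response was 1.49 higher in PMN-MDSCs under MS275 (interval 1.32 to 1.66, limma adjusted p = 1.80e-06) and 1.498 higher under CXD101 (interval 1.33 to 1.67, limma adjusted p = 2.92e-06). The Ncf1 response was 0.80 higher under MS275 (interval 0.62 to 0.98) and 0.46 higher under CXD101 (interval 0.28 to 0.64). With libraries scaled to equal sums Cybb was still called, at 1.097 and 1.15, while Ncf1 was at 0.41 under MS275, below the fold limit, and at 0.12 under CXD101 (limma adjusted p = 0.254). Ncf4 and Rac2 then passed under neither compound. For Cyba the difference was 0.02 (interval -0.24 to 0.28) and -0.05 (interval -0.31 to 0.21), so its lower level under the inhibitors was not shown to differ between subsets in the reported fit, although with libraries scaled to equal sums the values were -0.37 and -0.40 (limma adjusted p = 0.0370 and 0.0316). Rac1 showed 0.10 (interval -0.09 to 0.29) and 0.04 (interval -0.15 to 0.23), and -0.29 and -0.30 with equal sums (limma adjusted p = 0.0317 and 0.0272). With equal sums the median of all genes was itself -0.32 for the MS275 interaction and -0.30 for that of CXD101. Of all genes 25.5% and 21% were then called lower. Relative to that median Cyba was at -0.05 and -0.10, and Rac1 at 0.04 and -0.0046, values that again follow from the reported fit. The ratios within a library do not depend on scaling: Cyba/Cybb moved with the inhibitors in PMN-MDSCs, while Rac2/Rac1 was higher under the inhibitors in both subsets.

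**Figure D3:**
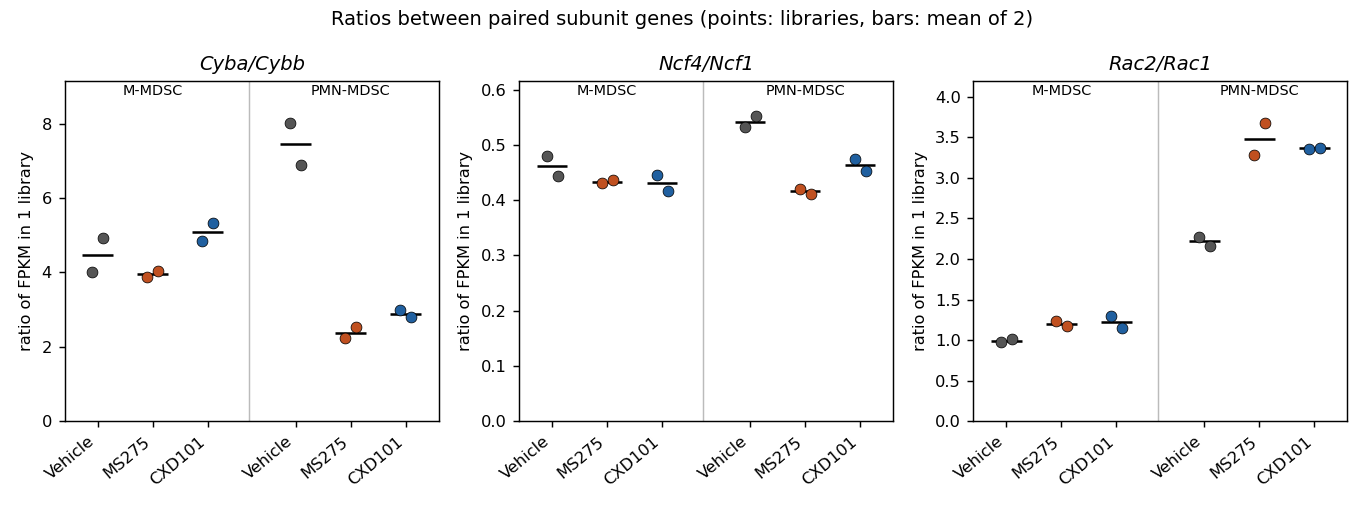
Ratios of FPKM within 1 library for Cyba/Cybb, Ncf4/Ncf1 and Rac2/Rac1, on y axes from 0; points are libraries, bars the mean of 2, with M-MDSC at left and PMN-MDSC at right. Cyba/Cybb falls from 6.90 to 8.02 under vehicle to 2.24 to 2.99 under the inhibitors in PMN-MDSC and stays between 3.87 and 5.31 in M-MDSC.

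Between the subsets themselves, most oxidase genes were higher in PMN-MDSCs. Under vehicle 4 of 6 members, Cyba, Ncf1, Ncf4 and Rac2, were called higher in PMN-MDSCs, where 17.2% of the 11662 genes were (by adjusted p alone, 4 of 6 and 30.5%), while Cybb and Rac1 differed by -0.13 (interval -0.25 to -0.01, limma adjusted p = 0.0570) and -0.12 (interval -0.26 to 0.01, limma adjusted p = 0.0994). Ncf4 and Rac2 had the largest vehicle differences, with folds of 2.02 (log2 1.01, SE 0.06) and 2.04 (log2 1.03, SE 0.0563). Ncf1 was 1.72-fold higher (log2 0.79, SE 0.0575) and Cyba 1.53-fold (log2 0.61, SE 0.0839). Under MS275, 5 of 6 were called higher (25.2% of genes) and under CXD101 4 of 6 (24.4% of genes), with Cyba at 0.56 just below the fold limit of 0.58, so that 5 of 6 passed by adjusted p alone (37.2% of genes). The largest shift among the members was that of Cybb, which changed from -0.13 under vehicle to 1.36 under MS275 and 1.37 under CXD101. Ncf1 was then 3.01-fold and 2.38-fold higher in PMN-MDSCs, Ncf4 2.88-fold and 2.55-fold, and Rac2 2.84-fold and 2.58-fold. Rac1 did not pass under any of the 3 treatments. Scaling to equal sums moved the median of all genes to -0.16 under vehicle, -0.47 under MS275 and -0.43 under CXD101, and the Cyba difference was then 0.43, 0.06 and 0.04. Rac1 was then lower in PMN-MDSCs, at -0.30, -0.59 and -0.61, and Cybb under vehicle at -0.31 (limma adjusted p = 0.000888). Without Vehicle replicate 1 of either subset the Cyba difference under vehicle was 0.51 or 0.54, under the fold limit, and without MS275 replicate 2 of PMN-MDSCs it was 0.56 under MS275.

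**Figure D4:**
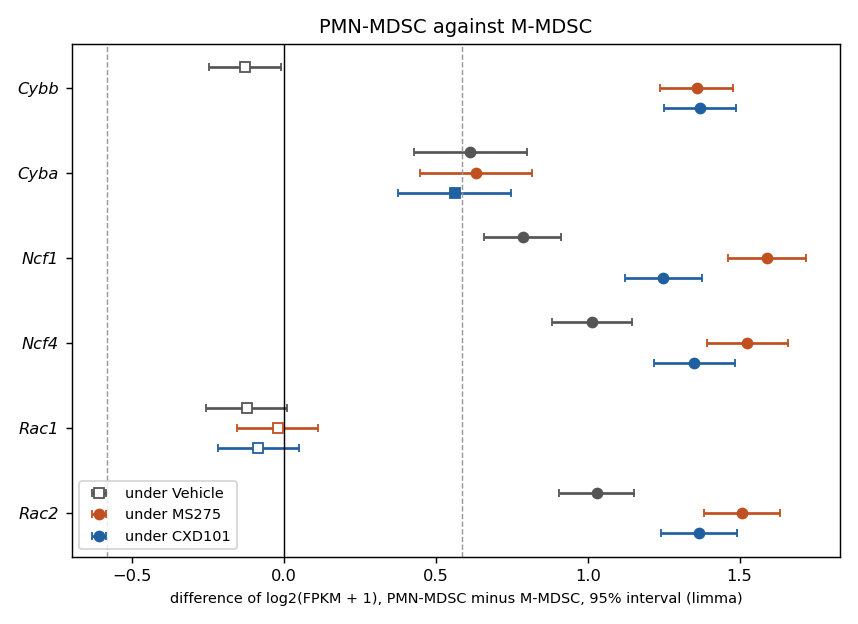
Difference between subsets, PMN-MDSC minus M-MDSC, in log2(FPKM + 1) with the 95% interval of limma, under each of the 3 treatments. Filled symbols passed at an adjusted p under 0.05, circles also exceeded the 1.5-fold limit (dashed lines), and open symbols did not pass. Cybb moves from -0.13 under vehicle to 1.36 and 1.37 under the inhibitors, and Rac1 stays near 0.

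The labelled subsets were checked on their markers. Ccr2 was higher in M-MDSCs under vehicle (147 and 137 FPKM) than in PMN-MDSCs (40.7 and 35.7 FPKM), and the neutrophil list was lower (11426 and 12081 FPKM against 71571 and 97549 FPKM). Csf1r, a receptor of monocytes and macrophages, was not lower in the vehicle PMN-MDSC libraries (159.9 and 145 FPKM) than in M-MDSCs (123 and 123 FPKM). Cx3cr1 was below 1.5 FPKM in all 12 libraries. Ly6g was not analysed here. The liver list was almost only Trf: its sum was 41.7 to 64.7 FPKM in M-MDSCs, 157 to 163 FPKM in vehicle PMN-MDSCs and 233 to 272 FPKM under the inhibitors, while Ttr was at 0 in every library.

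Other genes of the oxidase pathway were read from lists by role, whose counts of called genes stand beside these shares of all genes tested. In PMN-MDSCs 14.6% were called higher and 14.2% lower under MS275, and 11.9% and 9.54% under CXD101. In M-MDSCs 10.1% were called higher and 7.32% lower under MS275, and 5.14% and 3% under CXD101. Of the 11 other oxidase family genes, the chaperone of the flavocytochrome, Cybc1 (listed as BC017643), was the only one above 2 FPKM. It had 46.9 and 47.3 FPKM in vehicle PMN-MDSCs, 56.2 and 58.2 FPKM under MS275 and 59.5 and 60.3 FPKM under CXD101. In M-MDSCs it had 32.5 and 38.1 FPKM under vehicle, 31.6 and 29.6 FPKM under MS275, and 39.96 and 35.1 FPKM under CXD101. It was called higher in PMN-MDSCs under MS275 (0.88) and CXD101 (0.66) but in no comparison with vehicle, and with libraries scaled to equal sums it was not called. Nox3, Nox4, Noxa1, Duox1 and Duox2, which encode oxidases and an activator of other tissues, were listed at 0 in all 12 libraries.

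Among 14 regulators of Rac, which load, unload or hold the GTPases, 0 were higher and 2 lower in PMN-MDSCs under MS275, and 0 higher and 1 lower under CXD101. In M-MDSCs 0 were higher and 3 lower under MS275 and 0 higher and 1 lower under CXD101. Arhgdia, a dissociation inhibitor that keeps Rac in the cytosol, fell under MS275 in both subsets. It had 368 and 405 FPKM in vehicle M-MDSCs against 261 and 251 FPKM under MS275 (log2 -0.59, limma adjusted p = 0.000243), just past the fold limit and not past it under the 3 other scalings. In PMN-MDSCs it had 292.5 and 252 FPKM against 165.5 and 177 FPKM (log2 -0.66, limma adjusted p = 0.000454). Chn2 in M-MDSCs (log2 -1.36 under MS275 and -1.16 under CXD101) and Vav2 in PMN-MDSCs (-1.56 and -1.34) fell by more. Dock2, an exchange factor for Rac in leukocytes, was more abundant in vehicle PMN-MDSCs, at 81.5 and 84.7 against 50.96 and 49.4 FPKM in vehicle M-MDSCs (log2 0.72, limma adjusted p = 8.34e-07; 0.54 and below the fold limit with equal sums). Racgap1 (log2 -1.32) and Tiam1 (log2 -0.99) were less abundant in vehicle PMN-MDSCs than in vehicle M-MDSCs. The median of the list was 0.02 under MS275 and 0.01 under CXD101 in PMN-MDSCs, and -0.41 and -0.25 in M-MDSCs.

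Of the kinases and the lipase that act on the oxidase, 2 were higher and 1 lower of 13 tested in PMN-MDSCs under MS275, and 1 higher and 0 lower under CXD101. Pik3cg, the leukocyte phosphoinositide 3-kinase downstream of chemoattractant receptors, had 29.0 and 32.4 FPKM under vehicle, 53.8 and 56.2 FPKM under MS275 (log2 0.82, limma adjusted p = 0.000153), and 45.7 and 49.98 FPKM under CXD101 (log2 0.62, limma adjusted p = 0.000836). Prkcb, a protein kinase C that phosphorylates p47phox, rose under MS275 in PMN-MDSCs (23.6 and 27.6 to 41.3 and 38.0 FPKM, log2 0.62, limma adjusted p = 0.00108) and in M-MDSCs (7.98 and 8.10 to 18.1 and 17.1 FPKM, log2 1.04, limma adjusted p = 3.79e-05). Prkcd, another such kinase, fell in M-MDSCs under MS275 (log2 -0.66, limma adjusted p = 4.85e-05), a call lost under quantile normalization. In M-MDSCs 1 of 12 was higher and 1 lower under MS275, and 0 were called under CXD101. The Pik3cg and Prkcb values in PMN-MDSCs fell below the fold limit when libraries were scaled to equal sums.

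Of 11 receptors that trigger the burst, 9 were called higher in PMN-MDSCs under vehicle and 0 lower, where 17.2% of all genes were called higher. Under MS275 11 were called higher (25.2% of all genes) and under CXD101 11 (24.4% of all genes), or 10 and 8 with libraries scaled to equal sums. Fpr1, the receptor for formylated peptides, had 287 and 327 FPKM in vehicle PMN-MDSCs against 35.3 and 37.2 FPKM in vehicle M-MDSCs (log2 3.05, limma adjusted p = 1.12e-09). Under the inhibitors the list split. In PMN-MDSCs 3 were higher and 1 lower under MS275, and 1 higher and 1 lower under CXD101. Clec7a (dectin-1), the receptor for fungal glucans, had 272 and 305 FPKM under vehicle, 83.9 and 78.7 FPKM under MS275 (log2 -1.81, limma adjusted p = 4.44e-06), and 62.9 and 68.9 FPKM under CXD101 (log2 -2.11, limma adjusted p = 4.34e-06). Fcgr4, an activating receptor for immunoglobulin G, had 61.6 and 73.4 FPKM under vehicle, 156 and 145 FPKM under MS275 (log2 1.15, limma adjusted p = 4.84e-05), and 149 and 148 FPKM under CXD101 (log2 1.13, limma adjusted p = 7.82e-05). In M-MDSCs 2 were higher and 3 lower under MS275, and 1 higher and 3 lower under CXD101, with Fcgr1 at 25.1 and 24.6 FPKM under vehicle and 6.72 and 6.66 FPKM under MS275 (log2 -1.75, limma adjusted p = 3.71e-06).

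Of the pentose phosphate and related enzymes that supply NADPH, 1 of 7 tested was lower in M-MDSCs under each inhibitor. In PMN-MDSCs 1 of 6, Idh1, was lower under MS275 (94.5 and 102 to 61.7 and 64.2 FPKM, log2 -0.64, limma adjusted p = 0.000218), and 0 of 6 were called under CXD101. Below the fold limit, G6pdx, the first enzyme of the pentose phosphate pathway, rose from 165 and 159 FPKM to 211 and 228 FPKM under MS275 (log2 0.43, limma adjusted p = 0.000804) and to 218 and 221 FPKM under CXD101 (log2 0.435, limma adjusted p = 0.00113). Pgd, the next NADPH-forming enzyme, rose from 482 and 476 FPKM to 650.1 and 674 FPKM under MS275 (log2 0.47, limma adjusted p = 0.000298) and to 619.9 and 618 FPKM under CXD101 (log2 0.37, limma adjusted p = 0.0013). With libraries scaled to equal sums neither gene passed under either compound (log2 0.0186 to 0.1151, limma adjusted p from 0.135 to 0.808). In the MS275 interaction 2 of 7 were called higher (8.65% of all genes), and 0 of 7 with equal sums or quantile normalization. Of the proton channel Hvcn1, the chloride transporter Clcn3 and the peroxidase Mpo, only Mpo was called against vehicle, and only in M-MDSCs. Mpo had 298 and 257 FPKM under vehicle, 1018 and 1059 FPKM under MS275 (log2 1.90, limma adjusted p = 1.71e-06), and 777 and 777 FPKM under CXD101 (log2 1.49, limma adjusted p = 2.32e-05). In PMN-MDSCs Mpo was between 25.9 and 68.3 FPKM in all 6 libraries.

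Of 24 genes that remove superoxide and peroxide, 2 were higher and 5 lower in PMN-MDSCs under MS275, and 1 higher and 6 lower under CXD101, against 14.2% and 9.54% of all genes called lower. Nqo1, a quinone reductase, rose from 11.2 and 12.9 FPKM to 29.9 and 26.5 FPKM under MS275 (log2 1.16, limma adjusted p = 8.30e-05) and to 24.5 and 26.2 FPKM under CXD101 (log2 1.02, limma adjusted p = 0.000248). Slc7a11, which imports cystine for glutathione, fell from 22.2 and 23.3 FPKM to 13.2 and 11.95 FPKM under MS275 (log2 -0.81, limma adjusted p = 0.00028) and to 8.29 and 8.03 FPKM under CXD101 (log2 -1.38, limma adjusted p = 3.94e-05). Prdx4, a peroxiredoxin of the endoplasmic reticulum, fell under both inhibitors as well (log2 -2.53 and -1.34). In M-MDSCs 2 were higher and 4 lower under MS275, and 0 higher and 2 lower under CXD101. With libraries scaled to equal sums the PMN-MDSC counts became 1 higher and 12 lower under MS275 and 1 higher and 13 lower under CXD101, where 31.3% and 27.8% of all genes were called lower.

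Transcription factors known to act on oxidase genes were read last. Cebpe, a factor of late granulocyte maturation, had 45.5 and 43.1 FPKM in vehicle PMN-MDSCs, 182 and 191 FPKM under MS275 (log2 2.05, SE 0.0763, limma adjusted p = 2.48e-06), and 168 and 190.1 FPKM under CXD101 (log2 1.99, SE 0.0763, limma adjusted p = 4.34e-06). Its 4 libraries under the inhibitors were far above both vehicle libraries. Cebpa, its relative of earlier stages, rose under MS275 and CXD101 in PMN-MDSCs (log2 0.97 and 0.82, the latter not called with equal sums) and in M-MDSCs (log2 1.01 and 1.02). Irf8, a factor of the monocyte lineage, fell in PMN-MDSCs under MS275 (16.5 and 11.2 to 5.99 and 6.33 FPKM, log2 -1.03, limma adjusted p = 0.00132). Spi1 (PU.1) had 407 and 362 FPKM in vehicle PMN-MDSCs and 393 to 433 FPKM under the inhibitors, overlapping the vehicle range. In M-MDSCs Cebpe rose from 22.7 and 25.8 to 33.2 and 41.1 FPKM under MS275 (log2 0.59, limma adjusted p = 0.0139). Under CXD101 it had 31.7 and 43.7 FPKM there (log2 0.60, limma adjusted p = 0.0247). A link between these factors and the oxidase genes was not tested. The list held 3 higher and 1 lower of 10 in PMN-MDSCs under MS275, 3 higher and 0 lower under CXD101, and in M-MDSCs 4 higher and 0 lower of 11 under MS275 and 3 higher and 0 lower under CXD101.

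The genes whose log2(FPKM + 1) followed each member most closely over the 12 libraries were found among 6459 genes with a mean of at least 10 FPKM. For Cybb they were Atp11a (Pearson r 0.991), Gyg (0.989) and Stk24 (0.978). For Cyba they were Efhd2 (0.987), Atp6ap1 (0.986) and Lfng (0.986), and for Rac1 Coro2a (0.954), Socs2 (0.943) and Cep250 (0.924). For Ncf1, Ncf4 and Rac2, which share the step between subsets, the closest genes were Trf (0.996), Fosl2 (0.997) and Zswim8 (0.997). Among the members, Ncf1 and Rac2 followed each other with r of 0.986 and Ncf1 and Ncf4 with 0.981, while Cybb and Cyba gave 0.447. These values describe 12 libraries in 6 groups, whose points share a subset or a treatment.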

How the data were processed

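RNA-seq of 12 libraries of sorted MDSCs (stranded poly(A) libraries, single-end reads) was analyzed. The authors deposited 1 table per library with FPKM values for 24346 gene symbols. The submitters' processing notes name TopHat2 2.1.1, Bowtie2 2.2.8, SAMtools 0.1.18, Cuffdiff 2.2.1 and the mm10 build. The annotation and the strand setting are not given in the sources used here, and the labels and methods name different RNA kits (miRNeasy Micro and Mini).

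Genes that reached 1 FPKM in 2 or more libraries were kept, 11078 in M-MDSCs, 11184 in PMN-MDSCs and 11662 over all 12. On log2(FPKM + 1), limma 3.58.1 (R 4.3.3, trend in eBayes) was fitted to the 6 libraries of a subset, or to all 12 for comparisons between subsets, with Benjamini-Hochberg adjustment across the genes kept. On simulated data 191 of 200 changed genes were called for MS275 in M-MDSCs, with 4 unchanged genes called (10914 genes tested), and 178 of 200 in PMN-MDSCs, with 1 unchanged gene called (11049 genes tested). Those changed genes were drawn from the more abundant genes and shifted by more than the fold limit. Recovery of smaller differences was not simulated. Steps between low FPKM values of genes with 1 transcript in GENCODE M21 gave an estimate of 7210000 to 10930000 reads per library. The reads on 1 kb of transcript of the least expressed member then had a counting error of 2.63 to 3.64%, which covers counting only. Replicates correlated with r of 0.988 to 0.991 and none were identical.

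The members and gene lists were chosen with earlier results of these data known. The text names the members, the genes closest to each by Pearson r, and genes from each pathway list. The latter were taken from up to 3 called genes per comparison with the largest change, no overlap between groups and a mean of 5 FPKM or more. Not every gene that met this rule is named. Spi1, G6pdx and the list genes at 0, and Pgd against vehicle, were added after their values were seen. Pseudocount, filter, scaling, trend, model, replicate block and left-out libraries were varied. Python 3.11.15 and pandas 2.3.3 handled the tables.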

Additional observations from a re-analysis of the deposited data

Results flagged for a closer look

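The response to an inhibitor differed between PMN-MDSCs and M-MDSCs, by the interaction test of limma over 12 libraries, for 4 of 6 members under each compound. Each was higher in PMN-MDSCs, and 15.9% of 11662 genes passed in that direction under MS275 and 12.2% under CXD101. Values are the response in PMN-MDSCs minus that in M-MDSCs on the log2(FPKM + 1) scale. Under MS275 they were 1.49 for Cybb (adjusted p = 1.80e-06), 0.80 for Ncf1 (adjusted p = 8.64e-05), 0.51 for Ncf4 (adjusted p = 0.00144) and 0.48 for Rac2 (adjusted p = 0.00148). Under CXD101 they were 1.498 for Cybb (adjusted p = 2.92e-06), 0.46 for Ncf1 (adjusted p = 0.00268), 0.34 for Ncf4 (adjusted p = 0.0163) and 0.34 for Rac2 (adjusted p = 0.0120). Ncf4 passed in this comparison although its response in PMN-MDSCs alone (0.09 and 0.14) did not, and its response in M-MDSCs under MS275 was -0.42. With libraries scaled to equal sums, Cybb was at 1.097 and 1.15, still called, and Ncf1 under MS275 was at 0.41, which passed by adjusted p but no longer exceeded 1.5-fold, while Ncf4 and Rac2 under both compounds and Ncf1 under CXD101 no longer passed. The CXD101 value of Ncf4 also failed without Vehicle replicate 1 or CXD101 replicate 2 of M-MDSCs, or without Vehicle replicate 1 or CXD101 replicate 2 of PMN-MDSCs, and that of Rac2 without Vehicle replicate 2 of M-MDSCs.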

How the results depend on the processing

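Of 1176 member values under other settings, 1132 kept their direction and their call, 6 lost the call, 7 gained it and 31 changed sign, and 84 lay on the other side of the adjusted p limit than reported. Both of the calls of Cybb in PMN-MDSCs passed under all 16 alternatives (0.90 to 1.28 under MS275 and 0.77 to 1.21 under CXD101), and its interactions under all 20. Scaling to equal sums changed most. It moved the median of all genes by -0.31 for MS275 and -0.31 for CXD101 in PMN-MDSCs, the members called were then 2 under MS275 and 2 under CXD101 (Cybb and Cyba), and 1 for the MS275 interaction. Of all genes in PMN-MDSCs 8.43% were then called higher and 31.3% lower under MS275, and 6.61% and 27.8% under CXD101. For the MS275 interaction 3.27% were called higher and 25.5% lower.

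With equal sums Ncf4 in PMN-MDSCs was -0.26 under MS275 and -0.21 under CXD101, and its CXD101 interaction -0.0072. The CXD101 interaction of Rac2 was -0.0067. The MS275 interaction was -0.37 for Cyba and -0.29 for Rac1, and the CXD101 interaction of Rac1 -0.30. The median of all genes was then -0.32 for the MS275 interaction and -0.30 for that of CXD101. In M-MDSCs Rac2 was 0.0229 for MS275 against vehicle and 0.0001 for MS275 against CXD101, and Rac1 0.0295 for the latter. With median-of-ratios scaling Rac2 was 0.0223 for MS275 against vehicle and Rac1 0.0138 for MS275 against CXD101, both in M-MDSCs. With quantile normalization the same values were 0.11 and 0.0568, the MS275 against CXD101 value of Rac2 was 0.0435 (M-MDSCs) and -0.0051 (PMN-MDSCs), the MS275 interaction was -0.19 for Cyba and -0.0041 for Rac1, and the CXD101 interaction of Rac1 was -0.0075. The cause was not tested.

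With 1 library left out, sign changes occurred only in values that had not passed. Rac2 in M-MDSCs ranged from -0.0631 to 0.0292 under MS275 and from -0.0178 to 0.0745 under CXD101, and Rac1 for MS275 against CXD101 from -0.0913 to 0.0596. Rac1 between subsets under MS275 ranged from -0.0585 to 0.0155, and its CXD101 interaction from -0.0376 to 0.1134. The Cyba interactions ranged from -0.0819 to 0.1203 and from -0.1516 to 0.0506. Cyba between subsets under CXD101 was called at 0.63 without CXD101 replicate 2 of M-MDSCs and at 0.60 without CXD101 replicate 2 of PMN-MDSCs.

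The replicate numbers gave no sign of pairing: deviations of same-numbered libraries correlated with r of -0.126 to 0.179, above 0.1 in 1 of 15 group pairs. Whether same-numbered libraries shared mice is not given in the labels, and with 2 libraries per group this check cannot exclude it. With a replicate block 0 member calls changed, 3 adjusted p changed side (Ncf4 for MS275 against CXD101 in M-MDSCs, Rac1 under MS275 and Cyba under CXD101 in PMN-MDSCs), and the counts over all genes were, for example, 3214 against 3214 for MS275 and 63 against 90 for MS275 against CXD101 in PMN-MDSCs.

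Counts over all genes moved more. Requiring 5 FPKM changed 1934 to 1269 for MS275, 901 to 591 for CXD101 and 487 to 268 between the compounds in M-MDSCs, the last also to 309 and 308 without MS275 replicate 1 or 2. Between the compounds in PMN-MDSCs 90 became 4 without a filter, 35 without the trend, 151 in the model of 12 libraries and 10 to 23 with 1 of the 4 compared libraries left out. Equal sums changed 2394 to 3851 for CXD101 in PMN-MDSCs, 2115 to 3352 for the MS275 interaction and 1620 to 2826 for that of CXD101. The split into higher and lower became 943 and 3497 (1628 and 1586 as reported) for MS275 and 739 and 3112 (1327 and 1067) for CXD101 in PMN-MDSCs. Between subsets it became 1543 and 2836 (2009 and 1959) under vehicle, 1424 and 5205 (2936 and 2942) under MS275 and 1440 and 4942 (2851 and 2860) under CXD101. For the interactions it became 381 and 2971 (1009 and 1106) and 373 and 2453 (852 and 768).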
